A study of Mus musculus with 6 samples.

Results

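The genes described here are 8 components of the Notch pathway, chosen by symbol from the deposited expression table: the receptor genes Notch1, Notch2 and Notch3, the ligand genes Jag1 and Jag2, the receptor-modifying enzyme gene Lfng, the nuclear effector gene Rbpj and the target gene Hes1. All 8 of 8 were among the 11417 genes listed. Poly(A) RNA of 3 established mouse mammary lines, BC44, HC11 and C57MG, was sequenced without treatment, with 2 libraries per line. BC44 cells grew on plastic in RPMI that held 10% serum and insulin at 5 µg/ml. HC11 cells had that medium with 10 ng/ml EGF added, and C57MG cells had DMEM that held 10% serum and insulin at 10 µg/ml. No transgene, knockout or agent is given for any line, and line and medium cannot be told apart. Nothing in the labels says that the 2 libraries of a line came from separate cultures, so p-values measure only the spread between these libraries, which may be technical.

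Notch receptors are single-pass membrane proteins that are activated by ligands of the Jagged and Delta families on a neighbouring cell. Ligand binding lets an ADAM protease and then gamma-secretase cut the receptor, and the freed intracellular part joins RBPJ and Mastermind proteins on DNA to switch on genes such as Hes1. In the mammary gland the pathway is known for its part in the choice between luminal and basal fates.

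The labels call all 3 lines mammary epithelial. A list of epithelial markers did not bear this out for C57MG, where some basal markers remained. The 12 listed genes of a 14-gene epithelial marker list summed to 419 to 478 RPKM in BC44 and 797 to 869 RPKM in HC11, but to 3.99 and 0.588 RPKM in C57MG replicates 1 and 2. RPKM is reads per kilobase of gene per 1000000 reads. Comparing it between genes thus rests on the gene lengths used, which are not given. In C57MG replicate 2, 9 of the 12 were listed at 0, Epcam and Cdh1 among them, and in BC44 Krt18 and Cldn3 were listed at 0 in both libraries. The 14 listed mesenchymal markers summed to 7872 and 8209 RPKM in C57MG against 364 to 511 RPKM in the other libraries, with Dcn at 0 in C57MG and BC44. Postn of that list went the other way, with 3.81 and 1.03 RPKM in C57MG against 46.4 to 83.0 RPKM in the other libraries. The 5 listed basal markers summed to 6412 and 6676 RPKM in BC44, 2906 and 3691 RPKM in HC11 and 219 and 270 RPKM in C57MG. Acta2, a smooth-muscle actin gene on that list, went the other way, with 105 and 136 RPKM in C57MG and at most 2.03 RPKM in any other library. Krt14 remained in C57MG at 118 and 64.75 RPKM, Krt17 at 24.72 and 11.38 RPKM and Trp63 at 5.856 and 6.98 RPKM. Krt5 was at 16.04 and 0.148 RPKM there. All of these keratin and Trp63 values lay below those of BC44 and HC11. The 4 listed genes of a 12-gene luminal list, Krt8 and Krt18 of the epithelial list among them, summed to 293 and 363 RPKM in HC11. They summed to at most 40.3 RPKM elsewhere. Prlr was at only 0.102 and 0.114 RPKM in HC11. Areg made up most of the C57MG sum, at 39.97 and 27.48 RPKM, against 1.255 and 2.581 RPKM in BC44. The 2 listed endothelial markers stayed at or below 2.38 RPKM in every library, and the 2 listed immune markers at or below 3.00 RPKM outside C57MG, where Lyz2 was at 18.6 and 17.2 RPKM. The part of these cell-state differences in the Notch results was not tested. In bulk RNA, fewer cells of a type and less RNA per cell cannot be told apart.

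The 3 lines had different Notch profiles. BC44 had the most Notch1, Jag1, Jag2 and Lfng and the least Rbpj. C57MG had the most Notch2 and Rbpj, the least Hes1, and very little of either Jagged gene. HC11 had the least Notch1, and its Hes1 level was near that of BC44. Differences were tested with limma on log2(RPKM + 1), and a difference passed at a Benjamini-Hochberg adjusted p under 0.05 over all 10759 genes tested, among which all 8 members were.

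**Figure D1:**
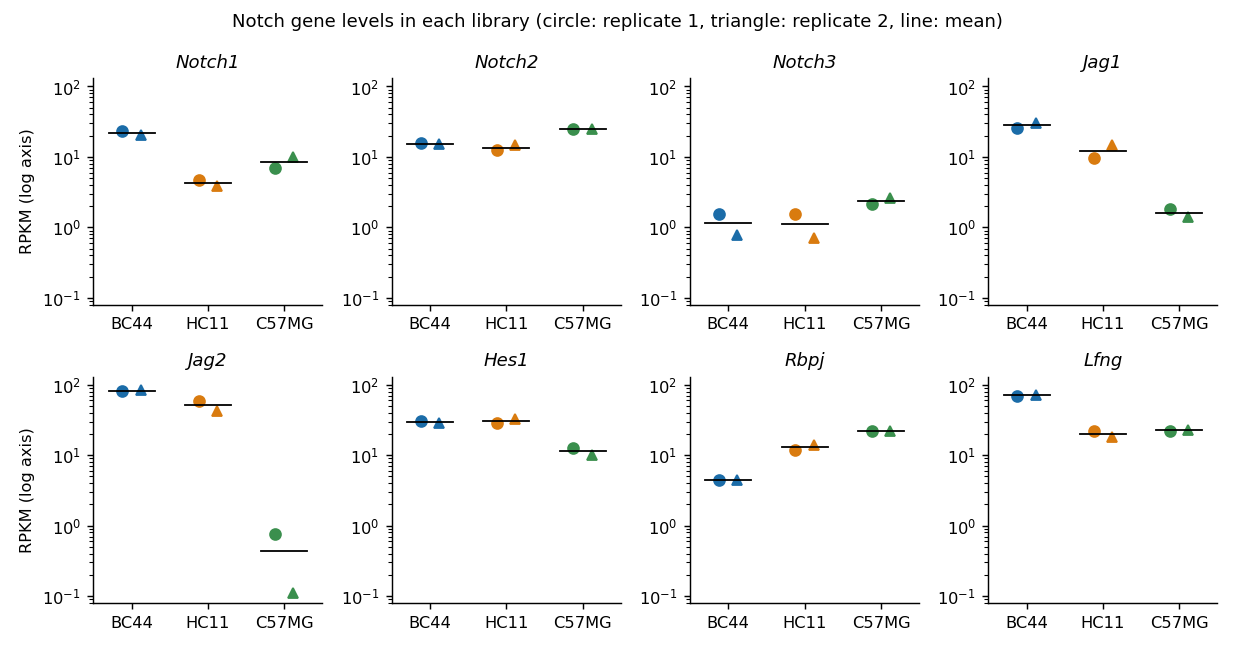
Level of each of the 8 genes in RPKM (log axis) in BC44, HC11 and C57MG, with 1 symbol per library and a line at the mean of 2. Jag2 ran from 83.9 RPKM in BC44 to 0.112 RPKM in C57MG, while Notch2 stayed between 12.5 and 25.1 RPKM.

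Among the receptors, Notch1 (ENSMUSG00000026923, chromosome 2, 26457903 to 26516663, minus strand, GRCm38) was at 23.0 and 20.2 RPKM in BC44 replicates 1 and 2. It was at 6.98 and 10.0 RPKM in C57MG and at 4.64 and 3.83 RPKM in HC11. The lines did not overlap, in the order BC44, C57MG, HC11, and the mean in BC44 was 5.11 times that in HC11. BC44 was higher on the log2 scale by 2.11 (SE 0.17, limma adjusted p = 6.04e-05) over HC11 and 1.27 (SE 0.17, 0.000312) over C57MG. HC11 was lower than C57MG by a log2 fold change of -0.85 (SE 0.17, limma adjusted p = 0.00279). Like the other receptors, Notch1 has a long extracellular part of EGF-like repeats.

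Notch2 (ENSMUSG00000027878, chromosome 3, 98013527 to 98150361, plus strand) had the narrowest range of the 8 genes in the ratio of its line means. It was at 25.1 RPKM in each C57MG library, in BC44 at 15.6 and 15.3 RPKM, and in HC11 at 12.5 and 14.7 RPKM. C57MG was higher than both other lines, with log2 fold changes of -0.66 (SE 0.10, limma adjusted p = 0.000509) for BC44 against C57MG and -0.84 (SE 0.10, 0.000153) for HC11 against C57MG. BC44 and HC11, which did not overlap, differed by 0.18 on the log2 scale (95% interval -0.05 to 0.41, limma adjusted p = 0.168). That last difference passed when HC11 replicate 2 was left out (0.29, limma adjusted p = 0.0477, in a range of 0.0477 to 0.541 over 14 alternatives).

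Notch3 (ENSMUSG00000038146, chromosome 17, 32120820 to 32166852, minus strand) was the lowest of the 3 receptor members in every library. It was at 1.55 and 0.784 RPKM in BC44, 1.54 and 0.711 RPKM in HC11 and 2.16 and 2.61 RPKM in C57MG. In both BC44 and HC11 replicate 1 was about as high as the other line's replicate 1, so these lines overlapped, and both C57MG libraries lay above all others. The difference on the log2 scale was 0.03 (95% interval -0.50 to 0.56, limma adjusted p = 0.923) for BC44 against HC11. It was -0.66 (SE 0.23, limma adjusted p = 0.0308) for BC44 against C57MG and -0.70 (SE 0.23, 0.0263) for HC11 against C57MG. Neither call held without C57MG replicate 1 (-0.76 and -0.79, limma adjusted p = 0.0596 and 0.0539) or without C57MG replicate 2 (-0.57 and -0.60, 0.135 and 0.121). The first was also lost without BC44 replicate 2 (-0.41, limma adjusted p = 0.202) or with a pseudocount of 0.1 (-1.04, 0.0582), and the second without HC11 replicate 2 (-0.41, 0.159). Over 13 alternatives the adjusted p ranged from 0.0126 to 0.202 and from 0.0105 to 0.159.

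The remaining mammalian receptor gene, Notch4, is no member and was under 0.62 RPKM in BC44 and HC11. It was at 2.48 and 1.98 RPKM in C57MG, with a log2 fold change of -1.09 (SE 0.12, limma adjusted p = 9.59e-05) for BC44 against C57MG. Because RPKM is per length, the 4 receptor genes were set side by side in a library, which rests on the gene lengths used. Their levels summed to 38.8 ± 2.83 RPKM in BC44, to 38.2 ± 2.12 RPKM in C57MG and, in HC11, to 19.1 ± 0.381 RPKM (SD, n = 2 each). Notch1 made up 55.8 ± 1.03% of that sum in BC44, against 22.2 ± 3.44% in HC11 and 22.2 ± 4.45% in C57MG. Notch2 made up 40.0 ± 2.48% in BC44, 71.0 ± 6.64% in HC11 and 65.7 ± 3.69% in C57MG (SD, n = 2 each). Notch1 thus had the highest RPKM of the receptor genes in both BC44 libraries, and Notch2 in the 4 others. The shares are given as a description, with no test.

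**Figure D2:**
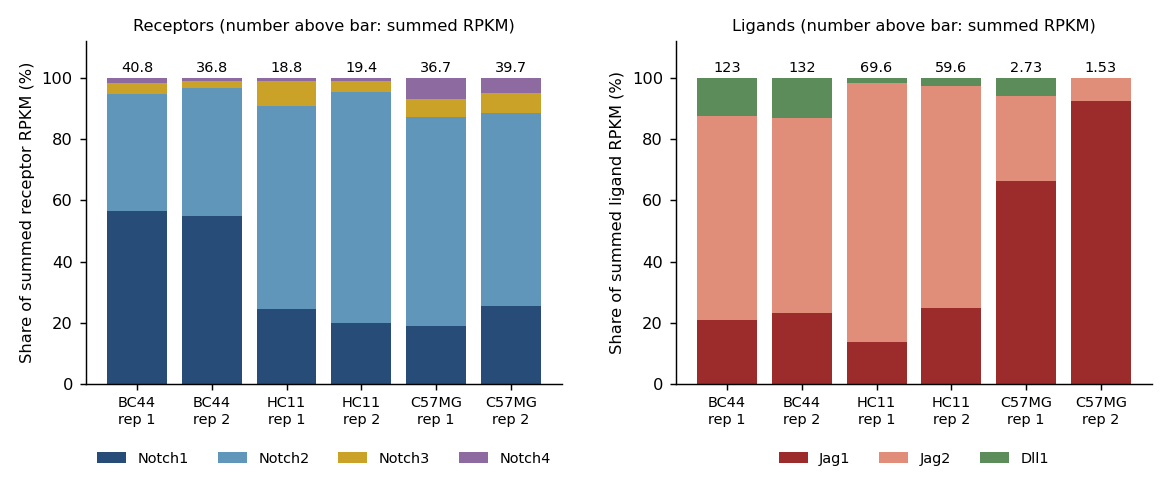
Share (%) of each receptor gene in the summed receptor RPKM (left) and of each ligand gene in the summed ligand RPKM (right), with 1 stacked bar per library and the summed RPKM above it. Notch1 holds 55.0% and 56.5% of the receptor sum in BC44, and the ligand sum goes from 123 and 132 RPKM in BC44 to 2.73 and 1.53 RPKM in C57MG.

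The ligand genes showed the widest differences. Jag2 (ENSMUSG00000002799, chromosome 12, 112907819 to 112929776, minus strand) encodes a Jagged-family ligand. It was at 81.9 and 83.9 RPKM in BC44, 58.8 and 43.2 RPKM in HC11 and 0.764 and 0.112 RPKM in C57MG replicates 1 and 2. The lines did not overlap, and the C57MG libraries rested on an estimated 95.9 and 12.1 reads, against 4275 or more in each other library. The difference on the log2 scale was 5.90 (SE 0.22, limma adjusted p = 4.62e-07) for BC44 against C57MG and 5.20 (SE 0.22, 9.57e-07) for HC11 against C57MG. On log2(RPKM + 0.1) these became 7.60 and 6.88, as the pseudocount of 1 exceeds the level in C57MG.

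BC44 was higher than HC11 for Jag2 by 0.71 (SE 0.22, limma adjusted p = 0.0346), a call that some alternatives kept and others did not. It was lost without BC44 replicate 1 (0.73, limma adjusted p = 0.130), without BC44 replicate 2 (0.69, 0.144), without HC11 replicate 2 (0.49, 0.202) and with a pseudocount of 0.1 (0.72, 0.351). The adjusted p ranged from 0.00696 to 0.351 over 14 alternatives.

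Jag1 (ENSMUSG00000027276, chromosome 2, 137081456 to 137116644, minus strand) encodes the other Jagged ligand. It was at 25.4 and 30.4 RPKM in BC44, 9.57 and 14.8 RPKM in HC11 and 1.80 and 1.41 RPKM in C57MG. The 3 lines did not overlap. The difference on the log2 scale was 1.16 (SE 0.20, limma adjusted p = 0.00245) for BC44 against HC11, 3.47 (SE 0.20, 3.14e-06) for BC44 against C57MG and 2.31 (SE 0.20, 3.06e-05) for HC11 against C57MG. Jag2 exceeded Jag1 by 2.76 to 6.15 times in the libraries of BC44 and HC11, and was at 0.424 and 0.0792 of the Jag1 level in C57MG.

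Dll1, the only canonical Delta ligand gene analysed here and no member, was at 15.4 and 17.3 RPKM in BC44 and 1.17 and 1.61 RPKM in HC11. In C57MG it was at 0.157 RPKM in replicate 1 and listed at 0 in replicate 2. BC44 was higher than HC11 by a log2 fold change of 2.86 (SE 0.14, limma adjusted p = 5.28e-06). The 3 ligand genes together came to 127 ± 6.35 RPKM in BC44, to 64.6 ± 7.06 RPKM in HC11 and, in C57MG, to 2.13 ± 0.848 RPKM (SD, n = 2 each). The receptor sums of BC44 and C57MG, by contrast, overlapped between libraries. Dll3 and Dll4 were not analysed here.

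Relative to BC44, the low Jag2 and Dll1 values of C57MG replicate 1 lay just above epithelial markers in that library. The 6 epithelial markers that averaged 20 RPKM or more in BC44 were at 0.621% to 0.903% of that mean in C57MG replicate 1 and at 0% to 0.0587% in replicate 2. Jag2 was at 0.922% and 0.135% of its BC44 mean in these libraries, and Dll1 at 0.960% and 0%. Jag2 thus lay above each of the 6 markers in both libraries, and Dll1 in replicate 1 only. Jag1 was higher still, at 6.46% and 5.06%. Hes1 was at 42.5% and 33.6% and Lfng at 31.7% and 32.7%. Without C57MG replicate 1 the Jag2 differences were larger, with log2 fold changes of 6.24 for BC44 and 5.53 for HC11 against C57MG.

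**Figure D3:**
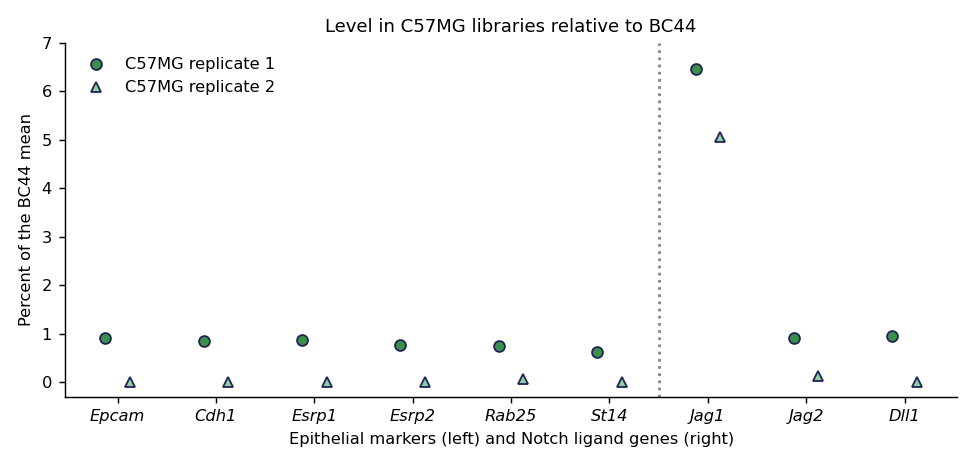
Level of 6 epithelial markers and 3 Notch ligand genes in C57MG replicates 1 and 2, as a percent of the BC44 mean. In replicate 1 Jag2 (0.922%) and Dll1 (0.960%) sit just above the markers (0.621% to 0.903%). In replicate 2 Jag2 (0.135%) lies above the markers (0% to 0.0587%) and Dll1 is at 0%. Jag1 lies farther above them in both libraries (6.46% and 5.06%).

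Lfng (ENSMUSG00000029570, chromosome 5, 140607320 to 140615545, plus strand) encodes lunatic fringe, a Golgi glycosyltransferase that extends sugars on Notch receptors and alters their response to Jagged and Delta ligands. It was at 69.4 and 71.9 RPKM in BC44, 22.0 and 18.4 RPKM in HC11 and 22.4 and 23.1 RPKM in C57MG. BC44 lay far above the other lines, which did not overlap either, with log2 fold changes of 1.76 (SE 0.10, limma adjusted p = 1.10e-05) against HC11 and 1.59 (SE 0.10, 4.58e-06) against C57MG. HC11 and C57MG differed by -0.17 (95% interval -0.40 to 0.06, limma adjusted p = 0.158). That difference passed without HC11 replicate 1 (-0.29, limma adjusted p = 0.0243, in a range of 0.0243 to 0.631 over 14 alternatives).

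Rfng, the radical fringe gene, did not follow Lfng. It was at 45.1 and 43.5 RPKM in BC44, 33.6 and 30.8 RPKM in HC11 and 13.1 and 11.8 RPKM in C57MG. HC11 was higher than C57MG for Rfng by a log2 fold change of 1.31 (SE 0.09, limma adjusted p = 9.60e-06). Lfng was 1.60 ± 0.0820 times Rfng in BC44 and 1.83 ± 0.180 times in C57MG, but 0.626 ± 0.0388 times in HC11 (SD, n = 2 each).

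Rbpj (ENSMUSG00000039191, chromosome 5, 53466152 to 53657362, plus strand) encodes the DNA-binding protein through which the cleaved receptors act, and which represses the same genes when no receptor fragment is bound. It was at 4.49 and 4.44 RPKM in BC44, 11.8 and 14.1 RPKM in HC11 and 22.3 and 22.0 RPKM in C57MG, with no overlap between lines. Its order of lines was thus the reverse of that of Jag1 and Jag2. BC44 was lower than HC11 by a log2 fold change of -1.34 (SE 0.11, limma adjusted p = 5.66e-05) and lower than C57MG by -2.08 (SE 0.11, 1.77e-06). HC11 was lower than C57MG by -0.74 (SE 0.11, limma adjusted p = 0.000507).

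The promoters of Lfng and Rbpj are shown because they alone, among the 7 members in RefSeq's promoter table (build GRCm38.p6), held TGGGAA. This is the core of the site that RBPJ binds. Hes1 is the member missing from that table, so its promoter was not searched. Windows ran from 250 bases before to 50 bases after the start, and 25.6% of all 32851 windows in that table held the core on either strand. The stretches printed end where annotated exons begin, capitals mark the core on either strand (TTCCCA is its other strand), and Jag1 is shown beside them as a ligand promoter with no match.
Lfng, chr5:140607091-140607319, plus strand: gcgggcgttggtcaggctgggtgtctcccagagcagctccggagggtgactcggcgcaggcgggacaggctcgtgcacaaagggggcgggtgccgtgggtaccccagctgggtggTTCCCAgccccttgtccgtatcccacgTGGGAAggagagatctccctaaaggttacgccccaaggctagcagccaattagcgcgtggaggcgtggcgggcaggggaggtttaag
Rbpj, chr5:53590096-53590213, plus strand: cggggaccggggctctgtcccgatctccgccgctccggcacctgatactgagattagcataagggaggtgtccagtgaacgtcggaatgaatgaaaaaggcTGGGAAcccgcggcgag
Jag1, chr2:137116645-137116770, minus strand: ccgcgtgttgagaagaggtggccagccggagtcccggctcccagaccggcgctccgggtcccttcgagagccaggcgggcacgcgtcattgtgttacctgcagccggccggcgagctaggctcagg

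Within the Lfng window the cores began at bases -135 and -108 from the start, on opposite strands. The first of the 2 Rbpj windows held cores at -149 and -65, of which the latter lies beyond the stretch printed. Without Hes1, the members had 8 windows, as Rbpj has 2. The N-box CACNAG, a site bound by Hes proteins, was in 4 of the 8 and in 42.5% of all windows. The core was in 3 of the 8. The 2 members that hold the core were opposite in BC44, which was highest for Lfng and lowest for Rbpj. Both had higher means in C57MG than in HC11, a difference that did not pass for Lfng. These matches describe letters in a window and were not tested as sites.

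Hes1 (ENSMUSG00000022528, chromosome 16, 30064384 to 30067796, plus strand) encodes a transcriptional repressor and is a standard readout of Notch signalling, though other pathways also control it. It was at 30.9 and 28.7 RPKM in BC44, 29.0 and 33.1 RPKM in HC11 and 12.7 and 10.0 RPKM in C57MG. BC44 and HC11 overlapped, with a log2 fold change of -0.05 (95% interval -0.34 to 0.235, limma adjusted p = 0.744), and C57MG lay below both. The difference on the log2 scale was 1.33 (SE 0.12, limma adjusted p = 4.32e-05) for BC44 against C57MG and 1.38 (SE 0.12, 3.99e-05) for HC11 against C57MG.

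Of 6 further direct target genes on the list, Nrarp and Hey1 were analysed here. Nrarp, which encodes a small feedback inhibitor of the Notch complex, was at 7.52 and 5.12 RPKM in BC44 and 5.61 and 4.07 RPKM in HC11, and was listed at 0 in both C57MG libraries. C57MG was lower in both contrasts (limma adjusted p = 6.40e-06 for BC44 and 1.39e-05 for HC11), and BC44 and HC11 differed by 0.32 on the log2 scale (95% interval -0.12 to 0.76, limma adjusted p = 0.198). Hey1 stayed under 1 RPKM and was not tested. It was at 0.869 and 0.702 RPKM in BC44, 0.758 and 0.665 RPKM in HC11 and 0.050 and 0 RPKM in C57MG. In all 3 target genes, C57MG had the lowest values. The 2 tested ones were called higher in BC44 and in HC11 than in C57MG, as were 37.5% and 37.4% of all tested genes. Hes6, a family member that is not a standard Notch target, had another order, with 1.97 and 1.17 RPKM in BC44, 7.0 and 6.18 RPKM in HC11 and 4.19 and 4.95 RPKM in C57MG.

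**Figure D4:**
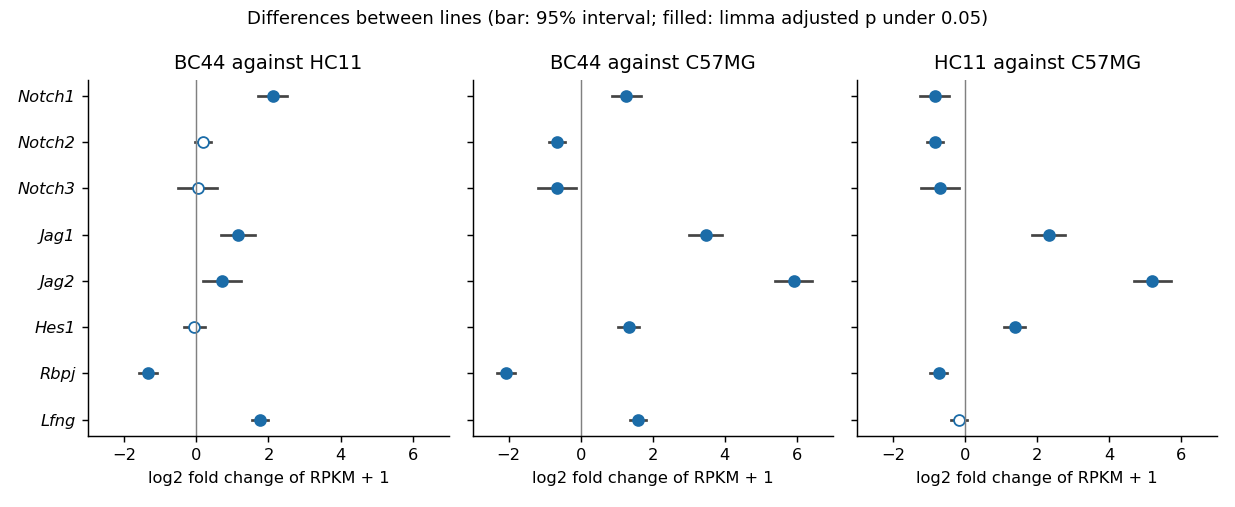
Log2 fold change of RPKM + 1 for the 8 genes in each contrast between lines, with 95% intervals; filled points passed at a limma adjusted p under 0.05. Jag2 and Jag1 lie farthest to the right in both contrasts with C57MG (5.90 and 3.47 for BC44, 5.20 and 2.31 for HC11), and Rbpj lies to the left in all 3.

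Most genes in this series differed between lines, and the members are read against that. Between BC44 and HC11, 5 of 8 members passed, 4 higher in BC44 and 1, Rbpj, higher in HC11, where 47.7% of all tested genes passed (24.7% higher in BC44 and 23.0% higher in HC11). Between BC44 and C57MG, 8 of 8 passed, with 5 genes higher in BC44 and 3 genes higher in C57MG, against 71.7% of all tested genes (37.5% and 34.1%). Between HC11 and C57MG, 7 of 8 passed, with 3 genes higher in HC11 and 4 genes higher in C57MG, against 70.5% (37.4% and 33.2%). No test set these shares of 8 genes apart from the background. Without C57MG replicate 1, and equally without C57MG replicate 2, 7 and 6 members passed in the last 2 contrasts, Notch3 being the one lost. Median absolute log2 fold changes of the members were 0.931, 1.46 and 0.846 in the 3 contrasts. The medians over all tested genes were lower, at 0.295, 0.568 and 0.532. Because the members were chosen with earlier results of these data known, their sizes are given as a description only.

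The wider pathway was described from a list of 72 genes that includes the members, of which 57 were listed and 54 tested. In BC44 against HC11, 28 of 54 (51.9%) passed, with 19 genes higher in BC44 and 9 genes higher in HC11. In BC44 against C57MG, 43 (79.6%) passed, with 22 genes higher in BC44 and 21 genes higher in C57MG, and in HC11 against C57MG, 39 (72.2%) passed, with 19 genes higher in HC11 and 20 genes higher in C57MG. Without the members the counts were 23, 35 and 32 of 46, and the median absolute log2 fold changes were 0.302, 0.471 and 0.4. The list's median absolute log2 fold change was 0.335, 0.572 and 0.435, against 0.295, 0.568 and 0.532 over all genes, so the pathway as a whole lay near the background.

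**Figure D5:**
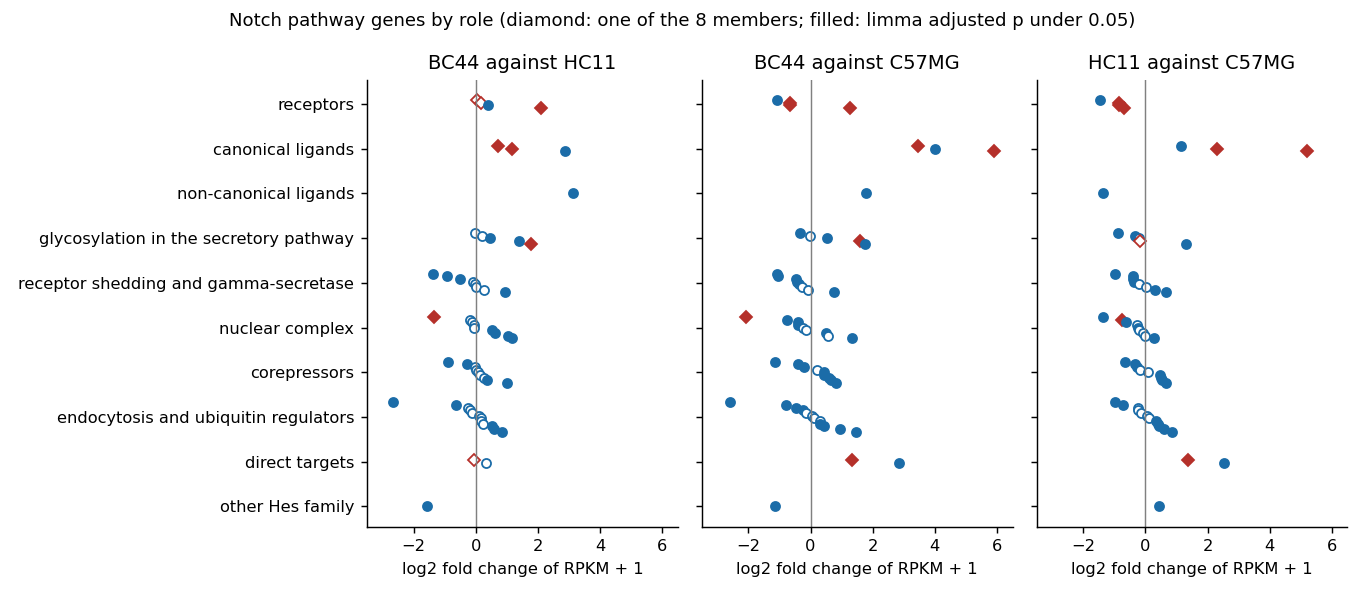
Log2 fold change of RPKM + 1 for the tested pathway genes by role, 1 panel per contrast, with members as diamonds and filled symbols for a limma adjusted p under 0.05. The canonical ligands lie to the right in all 3 panels (medians of 1.16, 4.01 and 2.31). In the BC44 and HC11 panels against C57MG, the 2 tested direct targets also lie to the right (medians of 2.09 and 1.96). The receptors lie to the left in these panels (medians of -0.664 and -0.846). Dlk2 (3.13, 1.77 and -1.36) and Hes6 (-1.58, -1.13 and 0.447) are each the only tested gene of a role.

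By role, the 3 canonical ligand genes passed in every contrast, in each case higher in the first-named line. The shares of all tested genes called higher in that line were 24.7%, 37.5% and 37.4%, with the contrasts ordered as above. The Jag2 call for BC44 against HC11 was lost under some alternatives. All 4 receptor genes were higher in C57MG than in HC11, and 3 of 4 were higher in C57MG than in BC44, where 33.2% and 34.1% of all tested genes were called higher in C57MG. Both counts include Notch3, whose calls were lost without either C57MG library. Of the 8 tested genes of receptor shedding and gamma-secretase, 5 were higher in C57MG than in BC44, 1 was higher in BC44 and 2 did not pass, so that 75% passed, near the 71.7% of all tested genes. Adam10, the main ligand-dependent sheddase, was at 30.6 and 33.2 RPKM in BC44, 69.5 and 67.6 RPKM in C57MG and 78.5 and 91.1 RPKM in HC11. On the log2 scale it differed by -1.38 (SE 0.09, limma adjusted p = 2.82e-05) for BC44 against HC11. Ncstn, the nicastrin subunit of gamma-secretase, was at 16.3 and 15.0 RPKM in BC44, 16.8 in each HC11 library and 35.7 and 32.0 RPKM in C57MG.

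Among the 9 genes of the nuclear complex, Rbpj and Maml2, a Mastermind gene, had opposite orders of lines. Maml2 was at 10.2 and 9.27 RPKM in BC44, 4.42 and 4.04 RPKM in HC11 and 3.09 and 3.45 RPKM in C57MG, with a log2 fold change of 1.33 (SE 0.11, limma adjusted p = 2.08e-05) for BC44 against C57MG. Maml3, another Mastermind gene, was also higher in BC44 than in HC11, at 5.03 and 4.66 against 2.38 and 1.03 RPKM (1.16, SE 0.22, limma adjusted p = 0.00437). Kat2b, an acetyltransferase gene, was at 23.8 and 28.8 RPKM in C57MG against 8.69 and 10.4 RPKM in HC11. The corepressor gene Tle1 was at 2.42 and 2.29 RPKM in BC44 against 6.34 and 6.53 RPKM in C57MG, and Tle3 at 14.1 and 11.4 in BC44 against 5.44 and 6.26 RPKM in HC11.

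Among the 12 tested regulators of endocytosis and ubiquitination, Dtx4 stood out in BC44. This Deltex-family gene was at 0.095 and 0.099 RPKM in BC44, 6.93 and 4.95 RPKM in HC11 and 4.62 and 6.67 RPKM in C57MG. Its BC44 values rested on an estimated 7.23 and 9.02 reads. The log2 fold changes were -2.65 (SE 0.19, limma adjusted p = 3.33e-05) against HC11 and -2.58 (SE 0.19, 1.08e-05) against C57MG. Neurl1a, which encodes a ubiquitin ligase acting on ligands, was at 4.02 and 3.94 RPKM in BC44 against 0.903 and 0.750 RPKM in C57MG. Furin, the protease that cuts the receptor precursor, was at 25.2 and 21.5 RPKM in BC44, 16.5 and 15.5 RPKM in C57MG and 8.97 and 7.71 RPKM in HC11. Its order of lines was that of Notch1. Dlk2, a non-canonical ligand gene of the Delta-like family, also had that order, at 36.8 and 42.4 RPKM in BC44, 10.8 and 10.9 RPKM in C57MG and 2.32 and 5.45 RPKM in HC11.

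Within the members, the closest profiles were those of Notch2 and Notch3, at a Euclidean distance of 0.691 between centred log2(RPKM + 1) values of the 6 libraries. Notch1 and Lfng followed at 0.760, both highest in BC44. The 2 Jagged genes were 3.21 apart, with line means that spanned 5.9 on the log2 scale for Jag2 and 3.47 for Jag1. The search covered the 7775 tested genes that averaged 5 RPKM or more. The nearest to Rbpj were Lipa (0.0970) and Axl (0.124), and to Hes1 Slc25a33 (0.177) and Cherp (0.210). Lgr4 (0.256) and Dst (0.378) were nearest to Lfng, Efna3 (0.402) and Col4a5 (0.440) to Notch1. Fgf13 (0.359) and Ankk1 (0.387) were nearest to Jag1, and Kcnk1 (0.322) and Rab15 (0.347) to Jag2. Lipa was at 4.38 and 4.48 RPKM in BC44, 11.8 and 14.7 RPKM in HC11 and 23.7 and 22.6 RPKM in C57MG, close to Rbpj in every library. Rab15, like Jag2, was measurable in C57MG replicate 1 (0.576 RPKM) and at 0.014 RPKM in replicate 2. These distances are over 6 libraries of 3 lines and describe likeness only.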

How the data were processed

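The authors deposited RPKM values, 1 per gene and library, per the name of the deposited table. STAR and build mm9 are named in the submitters' processing notes, and the read counter, annotation, gene lengths and any filter are not given in the sources used here. Gene positions are from GENCODE release M21 (GRCm38), matched by gene ID for all 11417 genes, and nothing was converted between builds. Whether counting used the strand is not stated: exons of other genes overlap 1482 bases of Notch1, 541 of Notch2, 488 of Notch3, 867 of Dll1 and 2051 of Nrarp.

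Depth was estimated from 46 to 65 low values per library, of which 80.4% to 93.5% lay within 0.15 of a whole read (30.0% by chance). It came to 14220000 to 18540000 reads, from lengths that only approximate the authors', because length-weighted RPKM summed to 1286564 to 1359834 where at most 1000000 is possible. Read numbers are estimates and cover counting error only.

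Genes with at least 1 RPKM in at least 2 libraries (10759) entered limma 3.58.1 (R 4.3.3) on the log2(RPKM + 1) scale (eBayes with trend, 6 libraries in 1 model, two-sided), which was tested on simulated data. limma offset sample variances of zero in some fits. Fold changes on this scale understate those of low genes. Members and lists were chosen with earlier results of these data known. Pathway genes were named by role and contrast, up to 3 that passed with a log2 fold change of at least 1 and no overlap; every listed receptor, canonical ligand and direct target was named too. Nearest genes were taken for members whose line means spanned at least 1 on the log2 scale.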

Additional observations from a re-analysis of the deposited data

How the results depend on the processing

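Across 14 alternatives (a pseudocount of 0.1, no filter, a filter at a mean of 5 RPKM, median-ratio scaling, quantile normalization, only the 4 libraries compared, limma without trend, the replicate block and each library left out), 17 of the 24 results for a member in a contrast kept their direction and their side of the threshold under every alternative run. Of 333 values, 317 did so, 11 no longer passed, 2 newly passed and 3 changed sign; the exceptions were Notch2, Jag2 and Hes1 between BC44 and HC11, Lfng between HC11 and C57MG, and Notch3 in all 3 contrasts. The changes of sign were in differences between BC44 and HC11 that did not pass: Notch3 at -0.225 without BC44 replicate 1 and -0.253 without HC11 replicate 2 (0.317 at the other end of the range over left-out libraries), and Hes1 at 0.038 without HC11 replicate 2 (-0.147 at the other end). The cause was not tested. Where a line is left with 1 library, that library is assumed to vary like the others. With each library left out, 4 to 5, 7 to 8 and 6 to 8 members passed in the contrasts of BC44 with HC11, BC44 with C57MG and HC11 with C57MG. In the same order the pathway list gave 23 to 28, 35 to 45 and 27 to 37, and all genes 3762 to 4776, 6554 to 7944 and 6274 to 7404. The filter at a mean of 5 RPKM left 38 pathway genes tested, of which 18 passed in BC44 against HC11 in place of 28. When the replicate block was added, 5, 8 and 7 members passed, as without it, and 29, 44 and 39 pathway genes. The labels give libraries of different lines only a number in common. Deviations of same-numbered libraries from their line means correlated over genes at 0.354 for BC44 with HC11. The values were -0.039 for BC44 with C57MG and 0.038 for HC11 with C57MG. What the BC44 and HC11 libraries of a number share was not tested. No scaling moved the median of all genes by more than 0.033 on the log2 scale.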
